A study of Homo sapiens with 13 samples.

Results

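Uninduced H9 cells were compared after 11 and after 5 days of culture, using 2 of the 13 bulk RNA-sequencing libraries of the study, both from the run that holds 5 libraries. H9 is an established human embryonic stem cell line, and hES-N1 is the stable derivative of it that carries a NEUROG2 gene inducible by doxycycline. The day-11 cells spent 2 days in E8 medium and then 9 days in 3N medium, and the day-5 cells spent 2 days in E8 medium and 3 days in 3N medium. Neither received doxycycline. Each library came from 1 well of a 6-well plate, both wells coated with Matrigel, so there is 1 library on each side and no test was possible. The other 3 libraries of the run are given as values where they bear on a gene: the same line with 1 µg/ml doxycycline for 11 or 5 days in the same media, and the line at day 0. Time in culture and time in 3N medium differ together and cannot be told apart. The labels give neither the composition of 3N medium nor whether the line is 1 clone.

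Human embryonic stem cells keep themselves pluripotent through a network of transcription factors around POU5F1, NANOG and SOX2, sustained in culture by FGF2 and by signals of the TGF-beta and Nodal family, both of which E8 medium provides. When those signals are withdrawn, the cells of such cultures readily take on an ectodermal course, in which the anterior neural plate forms first. That plate is patterned by homeobox and other transcription factors such as SIX3, RAX and LHX2, and by secreted signals such as FGF8, which comes from the anterior neural ridge and from the border between midbrain and hindbrain.

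The day-11 and day-5 libraries held 28443657 and 32640698 reads counted to genes. Levels are given as CPM, read counts scaled to a library of 1000000 reads, after TMM scaling over the 5 libraries of the run, and a ratio on the log2 scale is log2 of (day-11 CPM + 1) over (day-5 CPM + 1), which understates the difference of low genes. A gene was compared if it had at least 10 CPM in either library, and it was called different at 4-fold or more. Fold differences are of CPM without the added 1, and their 95% intervals are exact binomial intervals that cover counting error only. The day-5 library stood apart from the other 4 libraries of the run before any comparison. Of its reads, 15.03% came from mitochondrially encoded genes, against 4.29% to 7.17% in the others. Its 10 most abundant genes took 16.4% of its reads, against 5.74% to 8.07%. It also held the most genes with at least 1 read, 34295 against 30302 to 33311. The counts of called genes are therefore also given with the day-0 library in place of the day-5 library, over all genes and for some of the gene lists. The other run, of related hES-N2 lines given doxycycline, has 2 libraries in each of 4 groups, and there 0 of 10244, 0 of 10347, 2 of 10204 and 0 of 10254 genes at the same filter differed by 4-fold within a group.

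Of 60500 genes in the table, 12193 reached the filter, and 285 of these were at least 4-fold higher on day 11 (2.34%) while 566 were at least 4-fold lower (4.64%), 851 in all (6.98%). By this split 33.5% of the called genes were higher, but 46.1% were with scaling to library totals (389 higher and 454 lower) and 48.6% with the authors' normalized values set per library total (421 and 446). In the authors' values the scaling follows the row number and not the library. Between genes, their day-11 over day-5 factor differs by up to 1.5-fold. Library totals put the median log2 ratio of all genes at 0.31 in place of 0.05. With day 0 in place of day 5, 253 genes were higher on day 11 (2.11%) and 295 were lower (2.46%), 548 of 11996 in all (4.57%). Between day 5 and day 0 fewer genes differed: 100 were higher on day 5 (0.839%) and 25 lower (0.21%), 125 of 11916 in all (1.05%). Of the 566 genes lower on day 11, 491 were highest on day 5 of the 3 uninduced days. The other 75 were as high or higher on day 0. Of the 285 genes higher on day 11, 178 were lower on day 5 than on day 0, and 107 were not. The day-5 level entered both the choice of these genes and these splits, so part of each split was set by the choice. The share of all 12193 genes that were higher on day 5 than on day 0 was not worked out. The called genes just inside the threshold were ARMC4 at a log2 ratio of 2.004 and ANKLE1 at -2.002, and those just outside it were MLLT11 at 1.995 and KCNQ1OT1 at -1.998. Protein-coding genes made up 93.0% of the higher genes, 80.6% of the lower ones and 88.2% of the rest. Of 142 long intergenic RNAs at the filter, 7 were higher and 47 were lower (33.1%). The median GC content of the longest transcript was 46.7% for the higher genes, 52.5% for the lower ones and 47.6% for the rest, and the part of base composition in the calls was not tested.

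**Figure D1:**
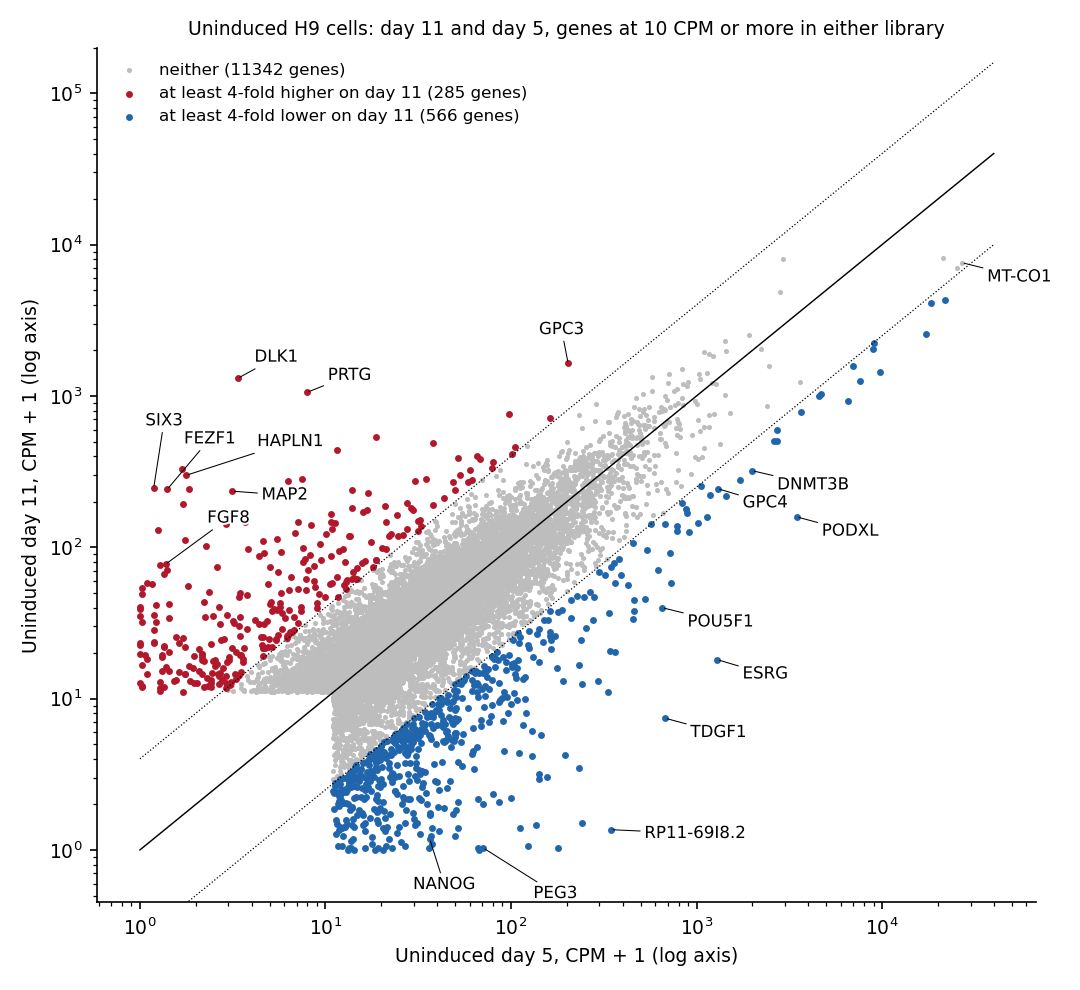
Level of each of the 12193 genes at the filter on day 11 (vertical axis) and day 5 (horizontal axis), both as CPM + 1 on log axes, with 1 library a day and dotted lines at 4-fold. The 285 red genes lie above the upper dotted line and the 566 blue genes below the lower one, with SIX3 and DLK1 far above it and TDGF1 and RP11-69I8.2 far below it.

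The 3 marker genes were SIX3, FGF8 and POU5F1, and the transgene is given with them because it checks the label of uninduced cells. SIX3, a homeobox factor of the anterior neural plate and eye field (chromosome 2, 44941898 to 44946077, GRCh38), had 8175 reads or 246 CPM on day 11, against 6 reads or 0.187 CPM on day 5, and 1 read on day 0. It was 1316-fold higher on day 11 (95% interval 604.4 to 3587). FGF8, a secreted patterning signal (chromosome 10, 101770130 to 101780369), had 2532 reads or 76.3 CPM on day 11, against 12 reads or 0.374 CPM on day 5, and was 204-fold higher (116 to 395). POU5F1, the central factor of pluripotency (chromosome 6, 31164337 to 31180731), had 1290 reads or 38.9 CPM on day 11, against 20986 reads or 654 CPM on day 5, and was 16.8-fold lower (15.9 to 17.8). With doxycycline SIX3 was at 0.394 CPM on day 11 and 1.91 CPM on day 5, FGF8 at 0.273 and 0.508 CPM, and POU5F1 at 5.54 and 5.03 CPM, and none of the 3 passed 4-fold between those days. NEUROG2 (chromosome 4, 112513516 to 112516172), the proneural factor encoded by the transgene, had 208 reads or 6.26 CPM on uninduced day 11 and 43 reads or 1.34 CPM on uninduced day 5, while it was at 1018 and 1564 CPM on days 11 and 5 with doxycycline. The EGFP sequence, which the count table lists beside the human genes, was at 25.8 CPM on uninduced day 11 and 87.2 CPM on uninduced day 5, against 742 and 1290 CPM with doxycycline, and mCherry had 0 reads in both uninduced libraries.

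Of the 32 gene lists, that of pluripotency genes had the lowest median. Of 25 listed, 22 reached the filter, 16 were at least 4-fold lower on day 11 and 0 were higher, beside 4.64% and 2.34% of all genes, and their median log2 ratio was -2.61, against 0.05 for all genes. TDGF1, the co-receptor of Nodal, was at 6.41 CPM on day 11 and 679 CPM on day 5, 106-fold lower (92.5 to 122). NANOG had 6 reads or 0.181 CPM on day 11 and 1138 reads or 35.5 CPM on day 5. PODXL, a sialomucin of the stem cell surface, was at 158 CPM on day 11 and 3471 CPM on day 5, and DNMT3B, a de novo DNA methyltransferase, was at 320 and 1994 CPM. The lower members also included the transcription factors PRDM14, FOXD3, ZSCAN10, UTF1 and FOXH1, the tetraspanin CD9, the RNA-binding protein L1TD1, the telomere protein TERF1, the kinase LCK and DPPA4. Their log2 ratios ran between -3.48 for CD9 and -2.01 for L1TD1. In bulk samples such as these, fewer cells of a type and less RNA per cell cannot be told apart.

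Not every gene of the network was lower. SOX2, which serves stem cells and neural progenitors alike, was at 306 CPM on day 11 and 249 CPM on day 5, a log2 ratio of 0.30. The let-7 inhibitors LIN28A and LIN28B were at 1196 and 164 CPM on day 11, against 849 and 64.1 CPM on day 5, with log2 ratios of 0.49 and 1.34. SALL4, ZFP42 and VRTN lay between, at -1.03, -1.41 and -1.75. Near-identical copies are listed beside 3 of the lower genes, and reads could be split between copy and parent: POU5F1P3 was at 7.05 CPM on day 11 and 120 CPM on day 5, TDGF1P3 at 1.20 and 98.9 CPM, and NANOGP8 at 0.181 and 13.1 CPM. Between day 5, after 3 days in 3N medium, and day 0 the members went both ways, with a median of -0.01 in the same 22 genes: the log2 ratio of day 5 over day 0 was -0.61 for POU5F1 and 0.80 for PODXL.

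The promoter of NANOG is shown because 2 factors of the network, POU5F1 and SOX2, are known to bind DNA through an octamer-like core and a neighbouring SOX core, and this gene was 196-fold lower on day 11 (89.9 to 536). The sequence is RefSeq's for GRCh38.p14, chromosome 12, 7789152 to 7789401 on the plus strand, the 250 bases before the start site. Capitals mark the octamer core ATGCAAA, here on the other strand, and the SOX core ACAATG.
NANOG: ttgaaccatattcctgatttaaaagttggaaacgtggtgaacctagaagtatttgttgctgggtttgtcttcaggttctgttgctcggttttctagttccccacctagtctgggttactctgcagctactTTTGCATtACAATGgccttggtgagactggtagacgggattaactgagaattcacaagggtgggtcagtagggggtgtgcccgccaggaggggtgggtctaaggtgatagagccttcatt
The cores lie 120 to 114 and 112 to 107 bases before the start. In windows from 250 bases before to 50 bases after a start site, counting both strands, the octamer core was present in 4.51% of 27305 promoters and the SOX core in 11.0%. RefSeq promoters were at hand for 9 of the 16 lower pluripotency genes, and NANOG was the 1 that held the octamer core and the 1 that held the SOX core. Among 11 of the 14 higher anterior neural plate genes with a promoter, 0 held the octamer core and 1, that of SP8, held the SOX core. Of the 15 protein-coding genes with the highest ratios, 9 had a promoter. Among these 9, 2 held the octamer core, CYP26C1 and HAPLN1, and 2 held the SOX core, MAP2 and PRTG. Of the 15 with the lowest ratios, 8 had a promoter, and NANOG alone held either core. No difference in these shares was tested. A match is a description of the letters and not of binding.

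The list of the anterior neural plate and eye field had the highest median. Of 24 listed, 16 reached the filter, 14 were at least 4-fold higher on day 11 and 0 were lower, with a median log2 ratio of 4.61. All 14 were under 5 CPM on day 5 and so reached the filter through day 11 alone, which made a higher level on day 11 a condition of being counted. The same held in other lists for higher genes that were under 10 CPM on day 5. They included 5 of 6 in the BMP list, 3 of 5 in the WNT list and 9 of 12 in axon guidance. In the surface ectoderm and neural crest lists all higher genes were of this kind. Lower genes under 10 CPM on day 11 reached the filter through day 5 alone, so a lower level was a condition of being counted. They included 7 of 16 in the pluripotency list, 7 of 8 in the noncoding list and 3 of 4 in the p53 list. In the Notch, immediate early and neural crest lists all lower genes were of this kind. After SIX3 the largest ratio was that of FEZF1, a zinc-finger repressor of the forebrain, which was at 241 CPM on day 11 and 0.405 CPM on day 5. RAX and SIX6, regulators of the eye field, were at 56.1 and 18.8 CPM on day 11, against 0.156 and 0 CPM on day 5. LHX2 was at 56.8 CPM on day 11, from 1886 reads, against 3 reads on day 5. PAX6, required in eye and cortex, was at 101 CPM on day 11 and 1.28 CPM on day 5. MEIS2, LHX5, SP8, VAX1, OTX1, EMX2 and HESX1 were also among the higher members, with log2 ratios between 2.73 for HESX1 and 4.90 for MEIS2.

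The other 2 members at the filter were present from the start. OTX2, a head regulator, was at 147 CPM on day 11, 38.3 CPM on day 5 and 29.9 CPM on day 0, and ZIC2 was at 218, 94.8 and 180 CPM. Both had log2 ratios below the threshold, 1.91 and 1.19. With doxycycline the same 16 genes had a median of -0.36 between days 11 and 5.

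**Figure D2:**
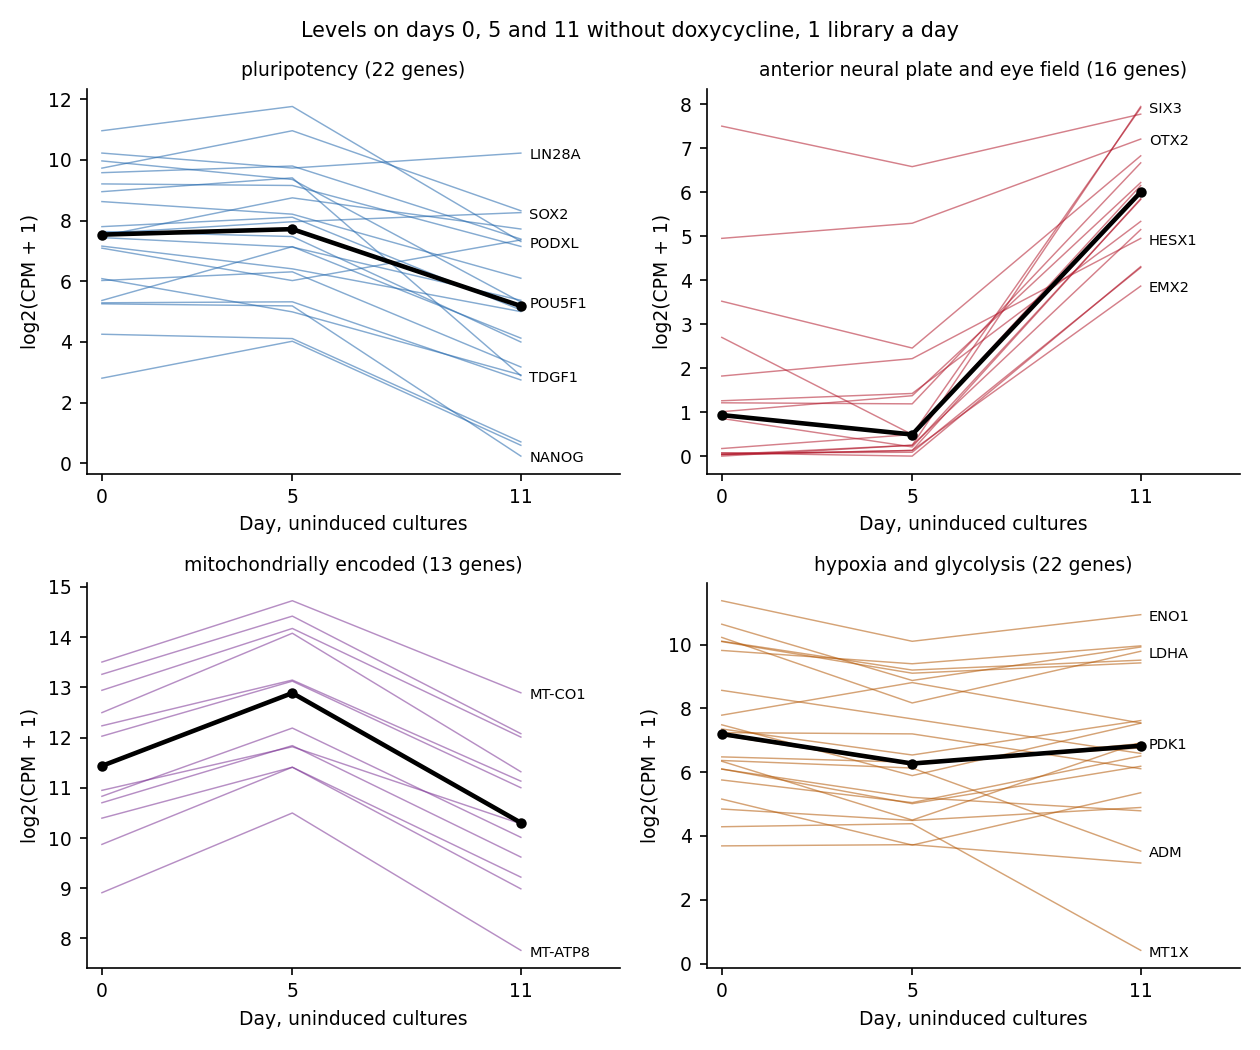
Level as log2(CPM + 1) on days 0, 5 and 11 without doxycycline, 1 library a day, for the listed genes that reached 10 CPM on day 11 or day 5 (22 of 25 pluripotency, 16 of 24 anterior neural plate and eye field, 13 of 13 mitochondrially encoded, 22 of 25 hypoxia and glycolysis genes). Thin lines are genes and the black line is their median: the pluripotency median is lowest and the anterior median highest on day 11, while the mitochondrial median peaks and the hypoxia median dips on day 5.

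More posterior neural regions were covered by a pair of lists. Of 20 genes of midbrain and isthmus, 5 had 5 reads or fewer on day 11 and 4 reached the filter. Of these 4, 3 were at least 2-fold higher and 1 was at least 2-fold lower. The list summed to 242 CPM on day 11 and 147 CPM on day 5. At 4-fold 2 were called, both higher and both under 10 CPM on day 5: FGF8 itself and PAX8, at 11.0 CPM on day 11 and 0.0312 CPM on day 5. The engrailed genes EN1 and EN2, which define the region, had 2 and 0 reads on day 11 and 0 reads on day 5, and WNT1 had 1 and 0. PAX2 had 100 reads on day 11 and 4 on day 5. Of 21 hindbrain and caudal genes, 17 had 5 reads or fewer on day 11, 11 of these with 0 reads on both days, among them HOXA2 and HOXB4. In that list 1 gene reached the filter and was higher, and the list summed to 60.3 CPM on day 11 and 10.8 CPM on day 5.

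Among neural progenitor genes 9 of the 19 at the filter were higher and 0 were lower, of 27 listed, with a median log2 ratio of 1.85. DACH1, NR2F2, FABP7, SOX21 and GLI3 had log2 ratios of 4.95, 4.59, 3.53, 3.41 and 3.15. NES, the intermediate filament long used as a progenitor marker, was at 209 CPM on day 11 and 405 CPM on day 5, and VIM at 140 and 52.9 CPM. Genes of neurons gave another picture. Of 30 proneural and newborn-neuron genes, 9 reached the filter, 1 was higher and 1 lower. The higher one was MAP2, a microtubule protein of dendrites, at 234 CPM on day 11, 2.15 CPM on day 5 and 8.23 CPM on day 0, while with doxycycline it was at 1587 and 1600 CPM on days 11 and 5. STMN2 was at 9.76 CPM on day 11 and 2.00 CPM on day 5, against 3666 and 4019 CPM with doxycycline. DCX was at 13.2 and 9.82 CPM, and ELAVL3, the lower member, at 1.93 and 11.1 CPM.

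Genes of ectoderm outside the neural plate differed in both directions. Of 22 genes of surface ectoderm and placodes, 15 reached the filter, 7 were higher and 1 was lower, with a median of 1.27, which was 2.28 with library totals, where 16 genes reached the filter. DLX5 was at 48.3 CPM on day 11 and 0.0312 CPM on day 5, GRHL3 at 86.3 and 3.37 CPM, and TFAP2A at 22.4 and 0.624 CPM. DLX3, DLX6, MSX2 and EYA1 were the other higher members, and EPCAM the lower one. The keratins KRT8, KRT18 and KRT19 were at 319, 142 and 170 CPM on day 11, against 179, 103 and 69.9 CPM on day 5. TP63, which marks stratified epidermis, had 5.54 CPM on day 11 and 0 reads on day 5, and KRT14 had 0 and 3 reads. Of 18 neural crest genes, 11 reached the filter, 4 were at least 4-fold higher and 2 lower, while 6 were at least 2-fold lower, the median was -1.09, and the list summed to 301 CPM on day 11 and 450 CPM on day 5. PAX7, PAX3, TFAP2A and MSX2 were higher, at 40.4, 21.9, 22.4 and 24.2 CPM on day 11, and FOXD3 and EDNRB, both also stem cell genes, were lower. SOX10, which defines migrating crest, had 0 reads on both days.

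Of 19 mesendoderm genes, 1 reached the filter, and the summed level of the list was 27.2 CPM on day 11 and 29.5 CPM on day 5. SOX17 and GATA6, markers of endoderm, had 0 reads on both days, EOMES had 1 read on each, and TBXT had 0 on day 11 and 2 on day 5. Of 16 genes of endothelium, blood and mesenchyme, 6 reached the filter and 2 were lower, KDR at 32.9 CPM on day 11 and 210 CPM on day 5 and COL1A1 at 57.0 and 726 CPM. PTPRC, the pan-leukocyte marker, had 0 reads on both days. Of 19 genes of astroglia and oligodendroglia, 8 reached the filter, PTN was higher, and CSPG4 and NFIB were lower.

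**Figure D3:**
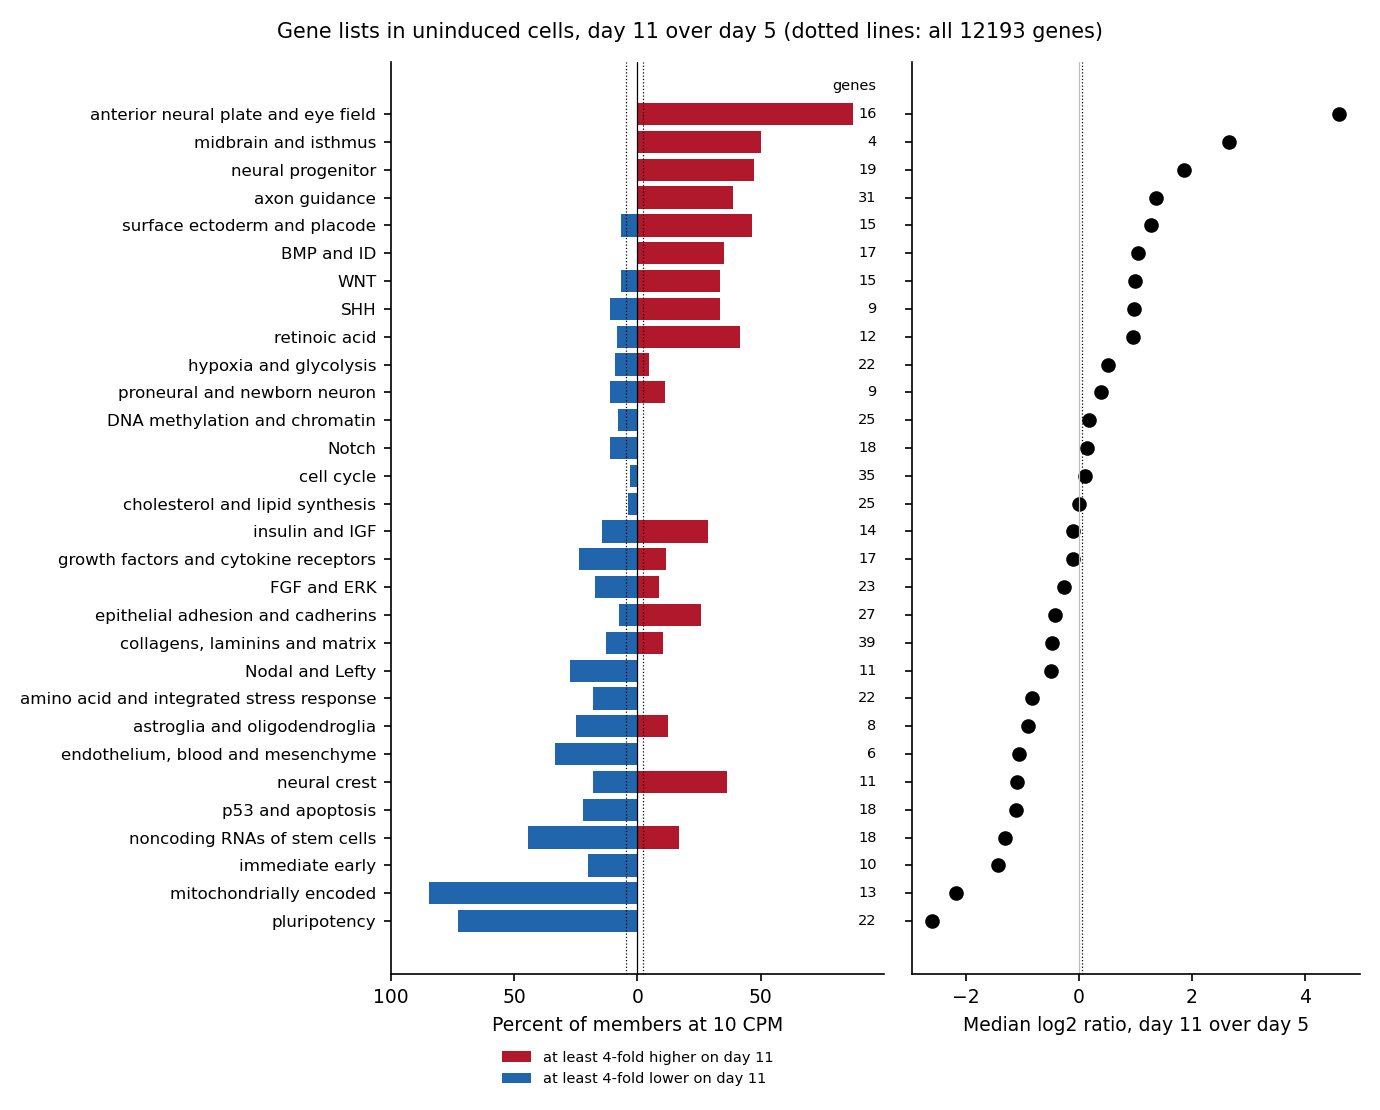
For each list with at least 4 members at the filter, the left panel gives the percent of those members that were at least 4-fold higher (red) or lower (blue) on day 11, with their number at the right edge, and the right panel gives the median log2 ratio of day 11 over day 5. Dotted lines give the values of all 12193 genes, 2.34% higher, 4.64% lower and a median of 0.05: the anterior neural plate list stands at the top with a median of 4.61 and the pluripotency list at the bottom with -2.61.

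Called signalling genes included ligands, receptors, inhibitors, enzymes, transcription factors and targets of several pathways. In the FGF pathway 23 of 30 genes reached the filter, 2 were higher and 4 lower, with a median of -0.26. The ligands went apart: FGF8 was higher, and FGF2, the factor on which stem cells depend, was at 35.7 CPM on day 11 and 338 CPM on day 5. The receptors FGFR1, FGFR2, FGFR3 and FGFR4 had log2 ratios between -1.82 and -0.84, none past the threshold. Inhibitors and targets of the pathway were divided in the same way. IL17RD, an inhibitor, was at 279 CPM on day 11 and 60.6 CPM on day 5, whereas SPRY4, ETV4 and EGR1 were lower, at 26.7, 23.3 and 6.81 CPM on day 11, against 160, 102 and 35.5 CPM on day 5. DUSP6, a phosphatase for ERK, was at 106 CPM on day 11 and 70.3 CPM on day 5, and 40% of its exon bases overlap those of another gene in the annotation.

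In the Nodal pathway 3 of 11 genes at the filter were lower and 0 were higher, of 17 listed. They were TDGF1, the transcription factor FOXH1 and SKIL, which restrains SMAD signalling. The receptors and SMADs were within 4-fold, with TGFBR1 at a log2 ratio of 1.14 and SMAD2 at -0.37. LEFTY1 and LEFTY2, feedback inhibitors of Nodal, had 2 and 1 reads on day 11, against 77 and 41 reads on day 5 and 279 and 204 reads on day 0.

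In the BMP pathway 6 of 17 genes at the filter were higher and 0 were lower, of 24 listed, with a median of 1.04. Antagonists and ligands were both among them. The antagonist GREM1 was at 111 CPM on day 11 and 0.748 CPM on day 5, and the antagonist NOG at 11.6 and 1.03 CPM. The ligand BMP5 was at 21.2 and 0.343 CPM and the ligand BMP2 at 13.5 and 1.62 CPM. The targets MSX2 and ID4 were higher, ID2 and ID3 had log2 ratios of 1.69 and 1.43, and ID1 was at -0.25.

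In the WNT pathway 5 of 15 genes at the filter were higher and 1 was lower, of 33 listed. The difference lay mostly in receptors of the Frizzled family. FZD5, an eye-field receptor, was at 761 CPM on day 11 and 96.2 CPM on day 5, FZD8 at 132 and 9.91 CPM, and FZD2 at 163 and 23.3 CPM, while FZD7, a Frizzled known from human embryonic stem cells, was at 127 and 780 CPM. The secreted antagonist FRZB was at 146 CPM on day 11 and 2.68 CPM on day 5. AXIN2, the usual target of the canonical pathway, was at 13.0 and 22.5 CPM. Of the 9 hedgehog genes at the filter, 3 were higher, the co-receptors BOC and GAS1 and the repressor GLI3, and 1 was lower, the target GLI1, at 1.51 CPM on day 11 and 39.7 CPM on day 5. The receptor PTCH1, another target, was at 36.1 and 44.99 CPM.

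In the retinoic acid pathway 5 of 12 genes at the filter were higher and 1 was lower, of 18 listed. Enzymes that clear retinoic acid and one that makes it were both higher. CYP26C1 was at 75.0 CPM on day 11 and 0.281 CPM on day 5 and CYP26A1 at 32.0 and 3.15 CPM, while the synthetic enzyme ALDH1A2 was at 12.1 and 0.530 CPM. CRABP1 and CRABP2, which bind retinoic acid in the cytoplasm, were at least 4-fold higher, and DHRS3, which lowers retinaldehyde, was at 1.57 and 44.1 CPM. CRABP1 was just past the threshold, at a log2 ratio of 2.03, and 47.2% of its exon bases overlap those of another gene in the annotation. In the Notch pathway 0 of 18 genes at the filter were higher and 2 were lower, the ligand-like inhibitor DLL3 and the target HEY2. HES1 was at 47.7 CPM on day 11 and 12.3 CPM on day 5, and HES5, the target most used in neural progenitors, had 3.49 CPM on day 11 and 0 reads on day 5.

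**Figure D4:**
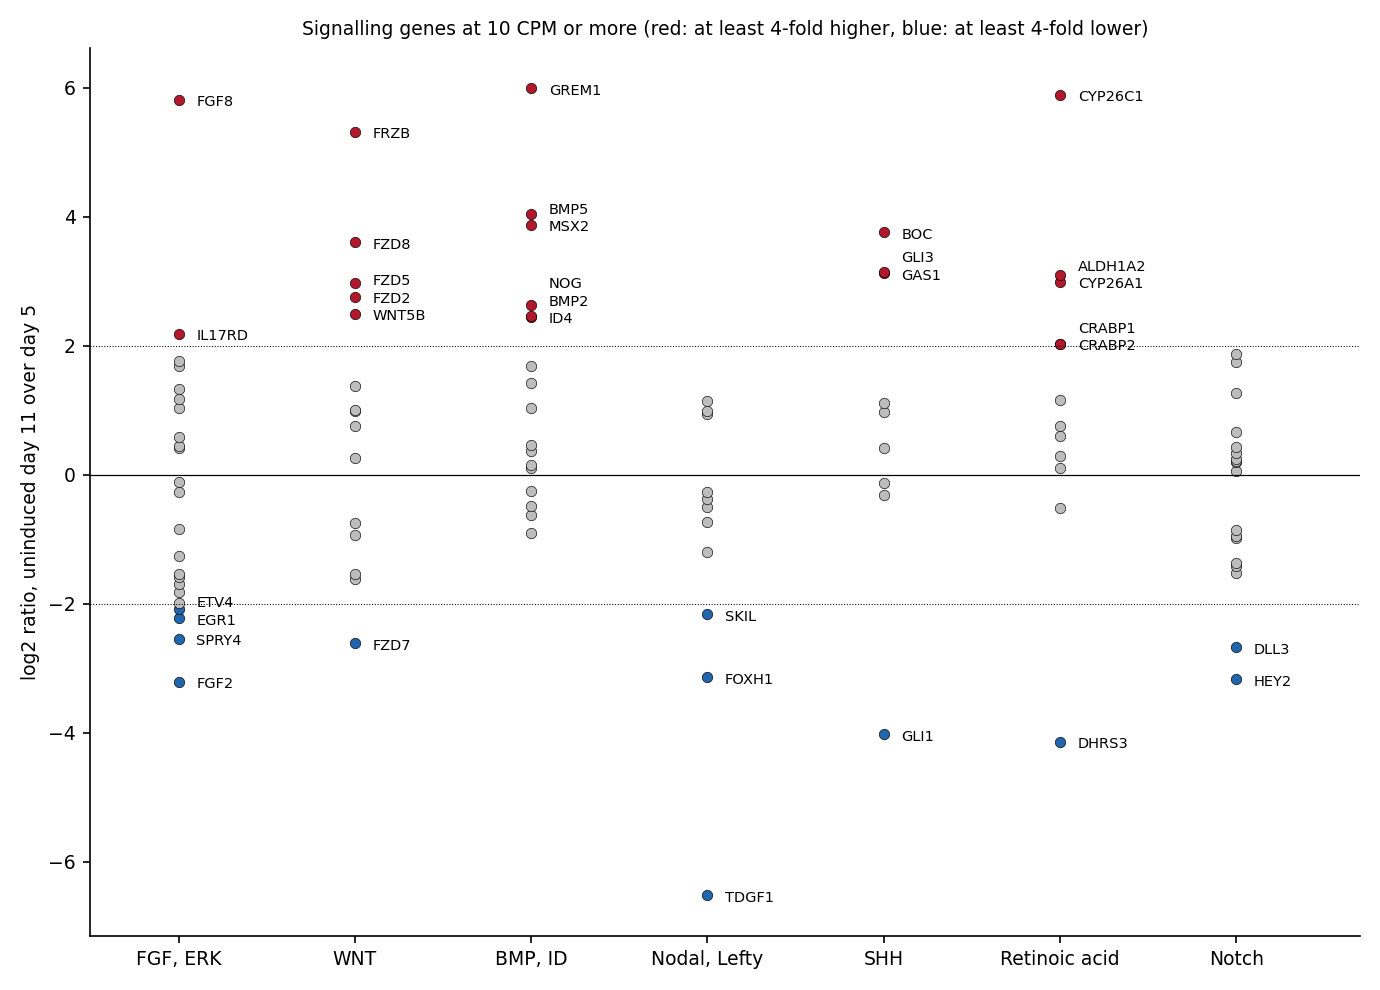
Log2 ratio of day 11 over day 5 for the genes of 7 signalling pathways that reached 10 CPM in either library, 1 point a gene, with dotted lines at 4-fold and names for the called genes. FGF8, GREM1 and CYP26C1 are the highest of their pathways, at 5.81, 6.00 and 5.89, and TDGF1 is the lowest gene drawn, at -6.52.

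Adhesion and guidance molecules differed by class. Of 32 genes of epithelial adhesion and cadherins, 27 reached the filter, 7 were higher and 2 lower. CDH2, the neural cadherin, was at 237 CPM on day 11 and 49.0 CPM on day 5, and CDH6 at 243 and 0.842 CPM, with CDH10, CDH11 and CDH20 also higher. The E-cadherin gene CDH1 was at 253 and 341 CPM, a log2 ratio of -0.43, while ZEB1 and ZEB2, known as its repressors, were higher, at 19.4 and 31.2 CPM on day 11 against 0.436 and 0.218 CPM on day 5. EPCAM and CDH3 were the lower members. Among axon guidance genes 12 of 31 at the filter were higher and 0 were lower, of 37 listed, with a median of 1.36. They included the ephrin receptors EPHA4 and EPHA7, the ephrins EFNB1 and EFNB2, the netrin receptors UNC5C and DCC, the adhesion protein FLRT3, the semaphorin receptor PLXNA2 and 4 semaphorins, with EPHA4 at 282 CPM on day 11 and 6.45 CPM on day 5. In the matrix, 4 of 39 genes were higher and 5 lower, of 42 listed. HAPLN1, which links hyaluronan to proteoglycans, was at 298 CPM on day 11 and 0.779 CPM on day 5, COL2A1 was at 401 and 64.7 CPM, and TNC and COL5A2 were the other higher members. COL1A1, COL9A3, COL6A1, COL6A2 and LAMA5 were lower, and all 5 were also higher on day 5 than on day 0.

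DLK1 had the largest log2 ratio of the 12193 genes, 8.60. It encodes a membrane protein related to Notch ligands, lies on chromosome 14 (100725705 to 100738224) and had 43392 reads or 1307 CPM on day 11, against 76 reads or 2.37 CPM on day 5. Its imprinted neighbour MEG3, a long noncoding RNA, was at 33.2 and 0.436 CPM. PRTG, a cell-surface protein of the early neural tube, was at 1055 CPM on day 11 and 6.95 CPM on day 5, and GREB1L at 330 and 0.686 CPM. LIX1 had 1765 reads on day 11 and 1 read on day 5. The growth-related genes IGFBP5 and IRS4 were at 275 and 109 CPM on day 11, against 5.27 and 3.62 CPM on day 5, and the polyamine enzyme ODC1 at 534 and 17.8 CPM. At the other end, TRDN, known for its role in muscle calcium release, had 0 reads on day 11 and 2116 on day 5, so it was at least 730-fold lower against a floor of 3 counts. SERPINB9, SLC17A9, UAP1L1, ADCY2, RAB17, LAMC3, PDZD4, LDHD, HTR7, PLA2G2A and the neuropeptide gene GAL had log2 ratios between -5.53 and -4.66. All of these except ADCY2 were higher on day 5 than on day 0, by log2 ratios between 0.31 for RAB17 and 2.93 for LDHD. For day 11 over day 0 their log2 ratios lay between -5.58 for ADCY2 and -1.86 for LDHD.

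Lists of general cell functions are given next. Of all genes at the filter 2.34% were higher and 4.64% lower, and 1 lower gene in a list of 25 or 35 is near that share. Of 38 cell cycle genes, 35 reached the filter, 0 were higher and 1 was lower, with a median log2 ratio of 0.11. MKI67 was at 326 CPM on day 11 and 392 CPM on day 5, TOP2A at 732 and 407 CPM and CCNB1 at 235 and 241 CPM. The 1 lower member was CDKN1A, an inhibitor of the cycle and a target of p53, at 24.97 and 173 CPM. It was joined by GDF15, PMAIP1 and PHLDA3 among 18 p53 and apoptosis genes, of which 4 were lower and 0 were higher, with a median of -1.12. Of 25 genes of amino acid supply and the integrated stress response, 22 reached the filter and 4 were lower, SLC7A3, SLC7A5, CHAC1 and VLDLR, the 2 transporters being at 36.9 and 64.1 CPM on day 11 against 461 and 389 CPM on day 5. Of 25 cholesterol and lipid genes at the filter, 0 were higher and 1 was lower, with a median of -0.00. Of 25 genes of DNA methylation and chromatin at the filter, DNMT3B and PRDM14, both already counted in the pluripotency list, were lower and 0 were higher. Of 10 immediate early genes at the filter, FOSL1 and EGR1 were at least 4-fold lower, 6 were at least 2-fold lower, and the median was -1.44.

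In the lists of energy metabolism, the counts of called genes and the medians changed with the choice of the earlier library. Of the 13 mitochondrially encoded messenger RNAs, 11 were at least 4-fold lower on day 11 and the median log2 ratio was -2.19. With library totals 5 of the 13 were, with a median of -1.94, and with day 0 in place of day 5 none (0 of 13) were. MT-CO2, a subunit of cytochrome oxidase, was at 5772, 17264 and 2552 CPM on days 0, 5 and 11. The median was 1.22 for day 5 over day 0 and -1.08 for day 11 over day 0, and between day 11 and day 0 the log2 ratios of the 13 lay between -1.18 and -0.61. Genes of hypoxia and glycolysis, 22 of 25 at the filter, had a median of the other sign, 0.51. Of the 22, 1 was at least 4-fold higher and 2 lower, beside 2.34% and 4.64% of all genes. At 2-fold 8 were higher and 5 lower. Their median was -0.89 for day 5 over day 0 and -0.35 for day 11 over day 0. LDHA, lactate dehydrogenase, was at 1198, 287 and 886 CPM on days 0, 5 and 11, PGK1 at 1597, 469 and 972 CPM and PDK1, which holds pyruvate back from mitochondria, at 80.2, 21.6 and 122 CPM. ADM and MT1X were lower on day 11, at 10.5 and 0.331 CPM, against 69.1 and 19.9 CPM on day 5.

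Noncoding RNAs held some of the largest differences. Of 26 symbols of stem cell noncoding RNAs, which name 25 genes, 18 reached the filter, 3 were higher and 8 lower, with a median of -1.31. The 8 lower ones included the stem cell transcripts ESRG at 17.1 CPM on day 11 and 1297 CPM on day 5, LINC00678 at 0.392 and 110 CPM, and LINC00458 at 0.0903 and 36.6 CPM, and also NEAT1, the RNA of nuclear paraspeckles, with 332 reads on day 11 and 2927 on day 5. The lowest ratio of all 12193 genes, -7.99, was that of RP11-69I8.2, an intergenic RNA on chromosome 6 (131901963 to 131920565) outside the list, with 12 reads on day 11 and 11071 on day 5. RP11-267L5.1 and CTD-2501M5.1, also intergenic, had 1 and 2 reads on day 11, against 5694 and 3932 on day 5 and 349 and 734 on day 0. The 3 higher members were MEG3, SIX3-AS1 and FEZF1-AS1, and further noncoding RNAs next to patterning genes were higher outside the list. SIX3-AS1 and RP11-89K21.1, on the other strand from SIX3 and next to it, were at 39.6 and 130 CPM on day 11, against 0 and 0.249 CPM on day 5. FEZF1-AS1, LHX5-AS1 and EMX2OS were at 193, 22.5 and 22.6 CPM on day 11, against 0.717, 0.187 and 0.187 CPM on day 5. Whether reads were counted by strand is not given in the sources used here and the library kit does not keep strand, so reads of FEZF1-AS1 and FEZF1, which share 18.4% and 23.4% of their exon bases, cannot be told apart there.

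The cluster of miR-302 and miR-367 on chromosome 4, the most abundant microRNAs of human embryonic stem cells, had fewer reads on day 11 as well. These counts come from libraries of messenger RNA and so measure precursor transcripts over the hairpins, not mature microRNAs, and each of the 5 loci stayed under 10 CPM. The mature 3-prime arms are given from RefSeq (GRCh38.p14), with the seed, bases 2 to 8, in capitals, because 4 of the 5 share 1 seed, the part that mostly sets which messages a microRNA binds.
hsa-miR-302a-3p: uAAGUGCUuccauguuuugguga
hsa-miR-302b-3p: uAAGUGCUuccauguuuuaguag
hsa-miR-302c-3p: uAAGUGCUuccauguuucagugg
hsa-miR-302d-3p: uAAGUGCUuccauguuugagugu
hsa-miR-367-3p: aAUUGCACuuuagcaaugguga
MIR302A had 20 reads on day 11 and 135 on day 5, MIR302B 0 and 68, MIR302C 22 and 168, MIR302D 41 and 204, and MIR367, with a seed of its own, 29 and 220. Their host transcript RP11-148B6.1 was at 5.99 CPM on day 11 and 47.4 CPM on day 5, although 46.7% of its exon bases overlap LARP7.

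With day 0 in place of day 5, the patterning lists gave counts close to those above. Both sets of counts share the day-11 library, so their closeness is not an independent check. The pluripotency list then had 15 of 21 genes lower, the anterior neural plate list 15 of 17 higher and 1 lower, the neural progenitor list 8 of 19 higher, the axon guidance list 12 of 31 higher and the BMP list 6 of 17 higher. Under 10 CPM on day 0 were 13 of the 15 higher anterior genes and 5 of the 8 higher progenitor genes. So were 8 of 12 in axon guidance and 6 of 6 in BMP. These genes again reached the filter through day 11 alone. Of the 15 lower pluripotency genes, 6 were under 10 CPM on day 11 and passed through day 0 alone. Other lists moved more. The matrix list had 5 of 38 genes higher and 0 lower, with a median of 0.53, the WNT list had 4 of 15 higher and 0 lower, with a median of 0.27, and the noncoding list had 4 of 16 higher and 4 lower. The endothelium, blood and mesenchyme list had 2 of 6 lower, with a median of -0.35, and the retinoic acid list had 3 of 13 higher. In the Notch list 2 of 18 were higher and 2 lower, and in the immediate early list 4 of 11 were lower. The neural crest list had 4 of 11 higher and 3 lower. Of 23 FGF genes 1 was higher and 4 were lower, and of 9 proneural and newborn-neuron genes 1 was higher and 2 were lower. Of the 22 hypoxia and glycolysis genes, 0 were then higher and 2 lower, with a median of -0.35.

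The doxycycline pair gave a reading of the same interval in cells that make NEUROG2, and it shares no library with the uninduced pair. In it 11465 genes reached the filter, of which 85 were called higher on day 11 (0.741%) and 140 lower (1.22%), 225 in all (1.96%). Of 10051 genes at the filter in both pairs, 8 were higher in the uninduced pair and lower in the doxycycline pair, and 4 were the reverse. In the uninduced pair 2.34% of genes at its filter were higher and 4.64% lower. How many genes the shares of the 2 pairs would place in these classes by overlap alone was not worked out. The counts of 8 and 4 are therefore not read as an excess. PAX3 was at 21.9 CPM on day 11 and 1.40 CPM on day 5 without doxycycline, and at 0.121 and 10.2 CPM with it. HAPLN1, whose uninduced levels are given above, was at 0.454 CPM on day 11 and 12.4 CPM on day 5 with doxycycline. TCF12, a partner of proneural factors, was at 322 and 58.9 CPM without doxycycline and at 56.7 and 245 CPM with it. EEF1A2, the neuronal and muscle form of an elongation factor, was at 6.02 CPM on day 11 and 75.5 CPM on day 5 without doxycycline, and at 461 and 99.1 CPM with it. No difference between the pairs was tested, since each holds 1 library a side.

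**Figure D5:**
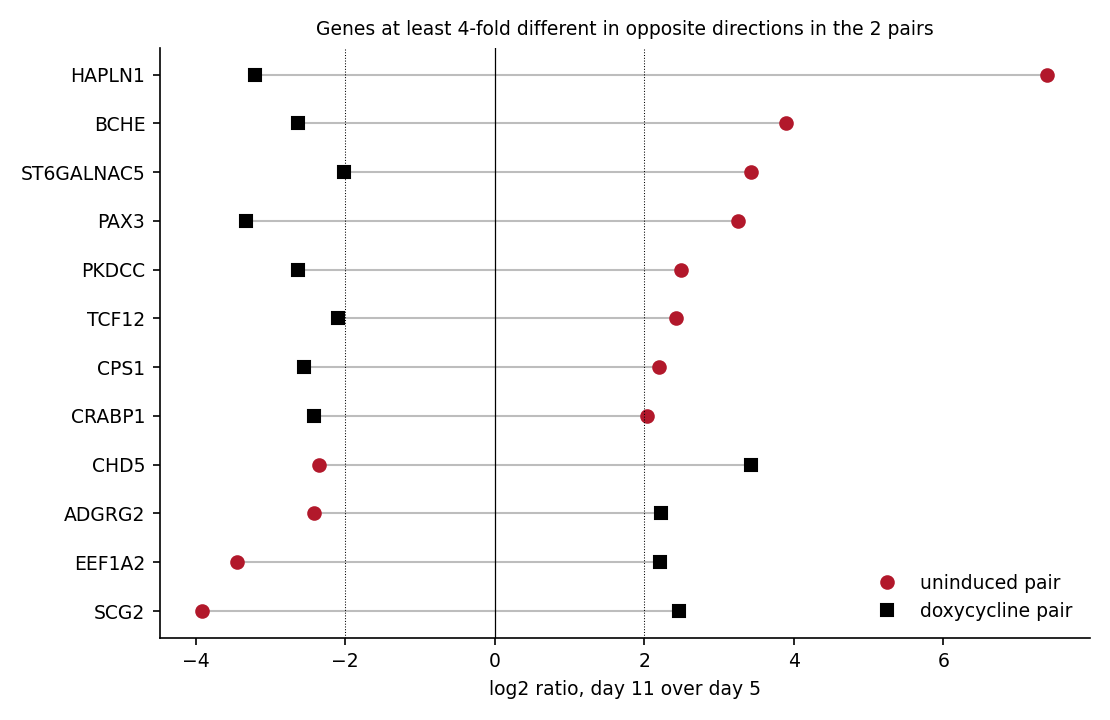
Log2 ratio of day 11 over day 5 for the 12 genes that were at least 4-fold different in opposite directions in the uninduced pair (circles) and the doxycycline pair (squares), 1 library a side, with dotted lines at 4-fold. HAPLN1 is the farthest apart, at 7.39 in the uninduced pair and -3.21 in the doxycycline pair.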

How the data were processed

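Total RNA was extracted with Trizol, made into libraries with the TruSeq RNA kit v2 and sequenced as single reads of 50 bases, per the labels' protocols. The authors deposited raw read counts per gene, and the submitters' processing notes name Subread, featureCounts 1.5.0 and the GRCh38 build. The handling of strand and of reads that match several places is not given in the sources used here. The authors also deposited a normalized table (signal: counts divided by factors). In it the ratio of value to count takes 6 values that repeat with the row number and not with the library, over 100% of 127464 values, so it served only as an alternative. For the other run its counts gave the spread between libraries.

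Counts were scaled by TMM (edgeR 4.0.16, R 4.3.3) over the 5 libraries of the run, with DESeq2 1.42.0 size factors as an alternative. The totals were 28443657 reads on day 11 and 32640698 on day 5. A pseudocount of 1 CPM, a filter of 10 CPM in either library and a threshold of 4-fold were used, with no p-value, since there was 1 library a side. Intervals of ratios are exact binomial (Clopper-Pearson, 95%). Counting error is all they cover, as the reads carry no molecular identifiers. The script was tested on simulated data. Symbols came from the authors' table for 26282 identifiers and from GENCODE v29 for 30859, and 3359 had none. Exon overlap and positions are from GENCODE v29 on GRCh38. The members, the 32 gene lists and the rule for named genes were chosen with earlier results of these data known. The rule named the markers and transgene, the 15 protein-coding and 6 other genes with the highest and with the lowest ratios, list members past 4-fold and up to 8 of the most abundant of each list, the 8 strongest peaks and troughs at day 5, genes opposite in the doxycycline pair, and the 10 genes with the largest gain and loss of CPM. Genes named outside it, among them EN1, STMN2, LEFTY1, SOX10, HES5, TP63 and AXIN2, and the lists of imprinted genes, glypicans, pseudogene copies and microRNA loci were chosen after their values were seen. Some genes are not reported here. A further 16 columns of per-sample values, in the authors' comparison tables, were not used.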

Additional observations from a re-analysis of the deposited data

Results flagged for a closer look

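The 12 genes below differed by at least 4-fold between day 11 and day 5 in both the uninduced and the doxycycline pair, in opposite directions. Each pair has 1 library a side, so the difference between the pairs was not tested. In the uninduced pair 2.34% of the genes at its filter were higher and 4.64% lower. In the doxycycline pair 0.741% were higher and 1.22% lower. What those shares give by overlap alone was not worked out, so the number of genes here is not read as an excess. With day 0 in place of day 5 in the uninduced pair, 7 of the 12 were under 4-fold, namely BCHE at 0.93, CPS1 at 1.99, TCF12 at 1.56, CRABP1 at 1.63, CHD5 at -0.53, ADGRG2 at -1.47 and EEF1A2 at -1.63. With a pseudocount of 5 CPM, 3 were, CRABP1 at 1.90, CHD5 at -1.41 and ADGRG2 at -1.85. With the authors' normalized values as deposited, 2 were, CPS1 at 1.92 and CRABP1 at 1.89. All other values are log2 ratios of day 11 over day 5, the uninduced pair first.

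Higher on day 11 without doxycycline and lower with it were 8 genes. HAPLN1, the hyaluronan link protein, was at 7.39 and -3.21. BCHE, butyrylcholinesterase, was at 3.90 and -2.63. PAX3, a factor of the dorsal neural tube and neural crest, was at 3.25 and -3.32. PKDCC, a secreted kinase, was at 2.50 and -2.62, and CPS1, a urea cycle enzyme, at 2.198 and -2.55. TCF12 was at 2.43 and -2.09. CRABP1, which binds retinoic acid, was at 2.03 and -2.42, and ST6GALNAC5, a sialyltransferase, at 3.42 and -2.01.

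Lower on day 11 without doxycycline and higher with it were 4 genes. SCG2, a protein of secretory granules, was at -3.91 and 2.47. CHD5, a chromatin remodeller of neurons, was at -2.35 and 3.43. ADGRG2, an adhesion receptor, was at -2.42 and 2.23, and EEF1A2 was at -3.45 and 2.21.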

How the results depend on the processing

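The main values, 285 genes higher and 566 lower on day 11, depend on the cutoffs and on the choice of the earlier library. A pseudocount of 5 CPM gave 175 higher and 289 lower, a filter of 50 CPM gave 126 and 199, a threshold of 2-fold gave 1243 and 1601, a threshold of 8-fold gave 139 and 205, and protein-coding genes without exon overlap alone, an alternative chosen after seeing the data, gave 167 and 271. With day 0 in place of day 5, also chosen after seeing the data, 253 were higher and 295 lower. In that exchange 5 named genes took the other sign: PEG3 at a log2 ratio of 0.0067, TRPC6 at 0.37, DTD1 at -0.32, TSPYL5 at -0.14 and NNAT at 0.57. The cause was not tested. Over 10 alternatives the 84 named genes that were called gave 798 values, of which 792 had the same direction and 744 were still at least 4-fold. Apart from day 0 in place of day 5, these alternatives rescale or subset the same 2 libraries. Most of the genes were named for large ratios in those libraries, so the counts are not an independent check. Every value without the same direction, and most of those under 4-fold, came from day 0 in place of day 5. Of 140 medians of lists whose median was at least 1 in size, 1 took the other sign, that of the neural crest list, at 1.05 in protein-coding genes without exon overlap. No paired analysis was possible because each group has 1 library and the result comes from no test. With 1 well a side, the spread between cultures is unknown, and genes with few reads in 1 library have wide counting intervals.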

Other observations

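Some genes stood apart on day 5 alone. Between days 0, 5 and 11, 81 genes had a level on day 5 at least 4-fold above both other days and 12 had one at least 4-fold below both. Both ratios of such a gene share the day-5 library, whose mitochondrial share was the highest of the run, and the part of that library in these patterns was not tested. PEG3, an imprinted zinc-finger gene on chromosome 19, had 1, 2244 and 1 reads on days 0, 5 and 11. ECEL1P1, a pseudogene on chromosome 2, was at 7.49, 241 and 0.512 CPM, and TRPC6, a calcium channel gene, at 0.684, 27.7 and 1.17 CPM. Among the genes with a low point on day 5, DTD1 was at 75.9, 12.9 and 60.7 CPM and ODC1 at 95.1, 17.8 and 534 CPM.

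Imprinted genes and glypicans were looked at after values of some of them had been seen. Of 30 imprinted genes, 19 reached the filter, 4 were higher on day 11 and 2 lower, with a median log2 ratio of 0.10, against 0.05 for all genes. Beside DLK1 and MEG3, PEG10 was at 271 CPM on day 11 and 57.6 CPM on day 5, and MEST at 719 and 161 CPM, while PEG3 and NNAT were lower. Of 6 glypicans, GPC3 was at 1645 CPM on day 11 and 202 CPM on day 5, and GPC4, its neighbour on chromosome X, was at 243 and 1298.5 CPM. Of 20 insulin and IGF genes, 14 reached the filter, 4 were higher and 2, INSR and FOXO1, were lower, at 32.1 and 5.87 CPM on day 11, against 158 and 41.9 CPM on day 5. Of 26 growth factors and cytokine receptors, 17 reached the filter, PTN and NRG1 were higher, and RET, PDGFA, FLT1 and GAL were lower. FLT1, a receptor for VEGF, was at 8.88 CPM on day 11 and 118 CPM on day 5.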
